A study of Mus musculus with 17 samples.

Results

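The subject is a split among 10 newborn mouse libraries, sorted by their own value of Pomc, the gene of pro-opiomelanocortin, at a threshold of 500 units. Of 17 libraries in the series, 10 are from postnatal day 0, and 4 of these lie above the threshold and 6 below it. Above it are chow libraries 3, 4 and 5 and high-fat diet (HFD) library 5, so 3 chow and 1 HFD library. Below it are chow libraries 1 and 2 and HFD libraries 1 to 4, so 2 chow and 4 HFD libraries. The question was which of the other genes were higher or lower where Pomc was high. No label or treatment made these groups. Because a measured value made them, Pomc is described and not tested, and a p-value for another gene says only how closely it followed the split in these 10 libraries.

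POMC neurons of the arcuate nucleus, in the mediobasal hypothalamus, release alpha-MSH, which restrains feeding through melanocortin receptors. Neighbouring neurons that make Agrp and Npy act against them and promote feeding. During development part of the cells that once expressed Pomc take on the Agrp and Npy fate or other arcuate fates. In a RiboTag mouse, a ribosomal protein carries an HA tag in cells where a driver gene is or has been active. An HA antibody then pulls down ribosomes with the RNA they translate, together with a background of untagged RNA from the tissue.

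All libraries came from POMCRiboTag mice, the controls included. Females 6 weeks old were given chow or a 45% HFD, were mated after 4 weeks and kept their diet until their offspring reached day 21. RNA was pulled down through the tag from offspring mediobasal hypothalamus at day 0 (5 libraries per diet) or at day 21 (3 chow and 4 HFD libraries). The labels call the samples biological replicates. They give no animal, litter, pool, sex or batch for any of them, so p-values measure only the spread between these libraries. Tagged cells include any with a history of Pomc expression. In pulled-down RNA, fewer cells of a type and less RNA per cell cannot be told apart.

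Values are normalised read counts in scaled units close to CPM (hereafter units). Depth was 25.1 to 34.9 M reads in the 4 libraries above 500 and 22.7 to 32.0 M in the 6 below (M, mega), and a value of 0 allows up to 3 reads, or 0.0871 to 0.127 units between the day 0 libraries, for counting error only. Some libraries stood apart. Chow library 3 had Cartpt at 105.57 units, against 7.21 to 22.05 in the other 9, and the highest Mbp. HFD library 5 was farthest out on the first principal component, computed without Pomc. That component held 34.5% of the variance and ran from 15.6 to 55.4 above 500 and from -37.7 to -13.0 below 500. The second held 15.8%, and on it chow libraries scored 9.86 to 38.3 and HFD libraries -24.8 to -13.2.

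Pomc was at 657.22, 890.68 and 1308.23 units in chow libraries 3, 4 and 5 and at 1057.28 in HFD library 5. Below the threshold it was at 146.34 and 223.67 in chow libraries 1 and 2 and at 90.72, 245.79, 102.17 and 181.33 in HFD libraries 1 to 4. The values nearest to 500 were 657.22 above and 245.79 below. All 7 day 21 libraries were higher, from 3877.52 to 12069.6 units.

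**Figure D1:**
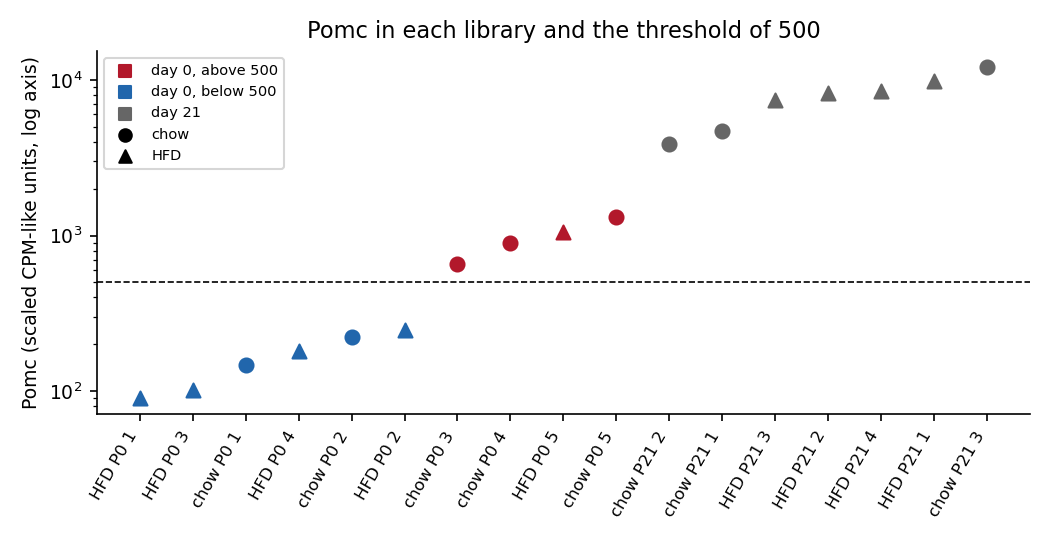
Pomc in each of the 17 libraries (scaled units, log axis), ordered within each age, with the threshold of 500 as a dashed line and the diet as the marker shape. The 4 red day 0 libraries lie from 657.22 to 1308.23 units, the 6 blue ones from 90.72 to 245.79, and the grey day 21 libraries from 3877.52 upward.

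Of 14353 genes tested apart from Pomc, 1692 were higher and 1246 lower in the libraries above 500 at an adjusted p of 0.05 (limma on log2(value + 1), Benjamini-Hochberg). These are 11.8% and 8.68% of the genes tested, and 20.5% together, the background against which the counts below are to be read. The 4 libraries did not overlap the 6 in 1350 genes that were higher (9.41%) and 955 that were lower (6.65%). Differences are log2 differences of value + 1, above 500 minus below 500, and understate the change of genes near 0. The median over all genes was 0.02. With the 5 chow libraries alone, 3 above and 2 below, 776 genes were higher and 559 lower (5.41% and 3.89%, or 9.3% together). Without chow library 5 the counts were 1085 and 806. Without HFD library 5, the only HFD library above 500, they were 1126 and 804, and 916 higher and 622 lower genes passed whichever single library was left out.

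**Figure D2:**
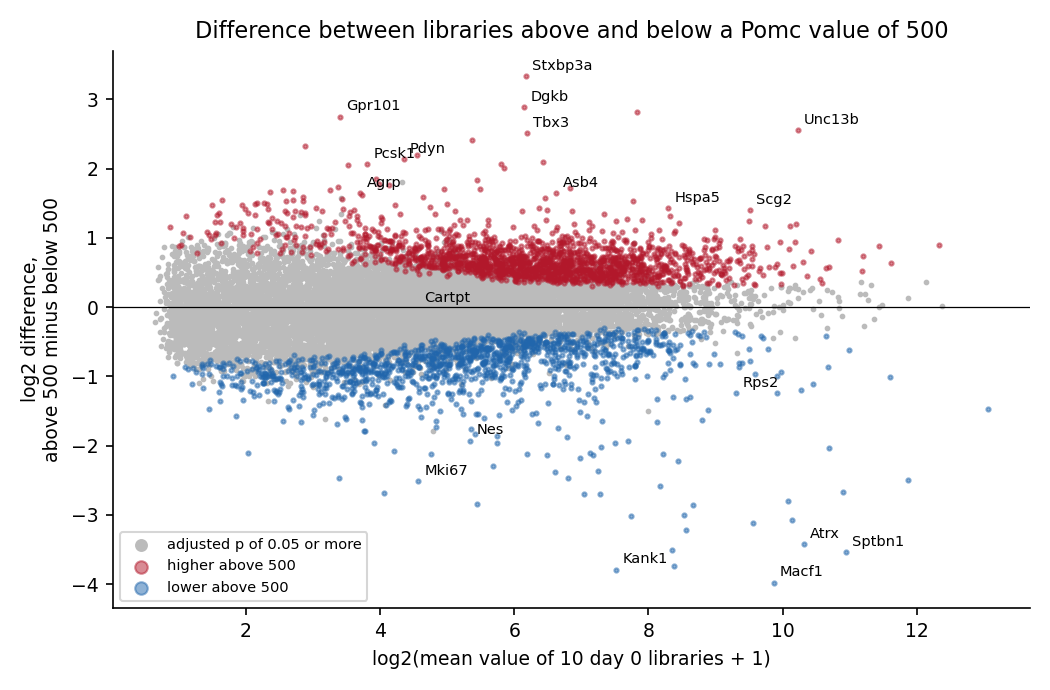
Each point is 1 of 14353 genes, with log2 of its mean over 10 day 0 libraries plus 1 on the x axis and its log2 difference on the y axis. Red points (1692) were higher and blue points (1246) lower above 500, and the largest falls, led by Macf1 at -3.98, lie farther from 0 than the largest rises, led by Stxbp3a at 3.34.

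Genes of POMC-neuron identity were higher in part. Of 12 tested members, 5 were higher, none was lower and 7 did not pass, with a median of 1.06. In the text that follows, values above 500 are given in the order chow libraries 3, 4 and 5, then HFD library 5. Tbx3, a T-box transcription factor needed for the identity of arcuate melanocortin neurons (chr5:119670669-119684724, plus strand, GRCm38), was at 68.83, 130.84, 160.56 and 218.85 units. In the 6 libraries below 500 it ran from 15.61 to 33.35 (median 22.8). The groups did not overlap, and the difference was 2.51 (SE 0.28, adjusted p = 6.66e-05). Isl1, a LIM-homeodomain factor that acts on Pomc transcription, was at 106.54, 189.2, 229.02 and 217.09 units, against 56.87 to 90.37 below, a difference of 1.39 (SE 0.20, adjusted p = 0.000311).

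Cited1, a transcriptional coregulator, and Asb4, which is abundant in the arcuate nucleus and encodes a SOCS-box protein, were also higher with no overlap. Cited1 was at 46.25, 72.23, 114.87 and 72.38 units, against 15.9 to 23.27 below (median 20), a difference of 1.84 (SE 0.21, adjusted p = 8.39e-05). Asb4 was at 115.44, 163.55, 203.48 and 184.73 units, against 43.28 to 60.78 (median 51.4), a difference of 1.64 (SE 0.16, adjusted p = 1.77e-05). Mc3r, a melanocortin receptor, passed with overlapping groups, at 6.23, 3.9, 9.17 and 18.05 units against 0.95 to 5.45 (1.17, SE 0.38, adjusted p = 0.0401), and its call held in only 4 of the 10 fits that left out 1 library.

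Cartpt, which encodes the anorexigenic CART peptide, did not follow the split. It was at 105.57 units in chow library 3 and at 7.21, 8.89 and 7.93 in the other libraries above 500, against 11.61 to 22.05 below (median 15.65). Its difference was -0.02 (SE 0.54, adjusted p = 0.983), and without chow library 3 it was -0.91 and past the threshold. Lepr, the leptin receptor, was low in both groups, at 4.29, 1.31, 2.28 and 4.65 units against 1.92 to 6.25 (-0.39, SE 0.33, adjusted p = 0.428). The difference of the serotonin receptor gene Htr2c was -0.72 (adjusted p = 0.141) and that of the transcription factor gene Nhlh2 was -0.10 (adjusted p = 0.714). At day 21, Cartpt ran from 391.17 to 2761 units and Tbx3 from 42.69 to 193.32.

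Pituitary RNA, which would also carry Pomc, was looked for through marker genes. Of a list of 16, 4 had values, 1 passed the filter on low values, and none was called. Summed, the list was at 21.5 to 38.9 units above 500 and 22.7 to 51.1 below. The 3 given here do not stand for the whole list. Pitx1, a pituitary transcription factor, was listed at 0 in 7 of the 10 libraries and at 0.04 to 1.92 units in the others. The highest value was in HFD library 4, below 500. Cga, the common subunit of pituitary glycoprotein hormones, was at 2.29, 0.16, 0.36 and 0.03 units above 500 and at 0 to 1.44 below, and Lhb stayed at or under 0.78 units in every library. The corticotroph factor Tbx19 was not analysed here.

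Many genes of the machinery that makes peptide hormones were higher. Of 15 tested genes of prohormone processing and secretory granules, 8 were higher and none lower (11.8% of all genes were higher), and the median was 0.52. All 8 passed whichever library was left out, against 916 of all 1692 higher genes. With chow libraries alone 4 of the 8 passed, against 653 of the 1692. Pcsk1, the convertase that first cleaves pro-opiomelanocortin (chr13:75089826-75134861), was at 15.55, 17.73, 26.75 and 37.51 units, against 1.17 to 8.44 below (median 6.23), a difference of 2.07 (SE 0.39, adjusted p = 0.00201). Scg2, which encodes a granin of dense-core granules, was at 764.98, 1011.3, 1352.1 and 1563.9 units against 392.88 to 465.51 (median 423.8), a difference of 1.40 (SE 0.16, adjusted p = 7.27e-05). Chgb, another granin gene, was at 201.4, 225.14, 323.07 and 333.18 units against 117.12 to 149.82 (1.02, SE 0.15, adjusted p = 0.000374). None of the 3 genes overlapped between the groups.

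Cpe, the carboxypeptidase that trims the cleaved peptides, was higher by a smaller step, at 1853.7, 1843.1, 2053.8 and 2220.4 units against 1216.7 to 1465.5 (0.57, SE 0.11, adjusted p = 0.00181). The granule membrane gene Ptprn (0.86), the granin-like Vgf (0.70), the chaperone Scg5 (0.54) and Chga (0.52) made up the 8. Pcsk2, the second convertase, was at 60.48 to 88.86 units above 500 and 53.34 to 72.5 below (0.19, adjusted p = 0.38), and the difference of the amidating enzyme Pam was -0.36.

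Of these genes, Pcsk1, Scg2 and Chgb, hold the cAMP response element TGACGTCA in the 250 bases before their RefSeq start. That is 3 of 13 granule genes with a promoter entry (23.1%), against 43 of 1304 higher genes (3.30%), 22 of 957 lower genes (2.30%) and 308 of all 11190 (2.75%), both strands read. The sequences are shown, from RefSeq on GRCm38.p6, in 5′ to 3′ order of the gene's strand, because these 3 led the granule group, and the capitals mark the element. They are Pcsk1 at chr13:75089607-75089856 (plus), Scg2 at chr1:79440027-79440276 (minus) and Chgb at chr2:132781392-132781641 (plus).
Pcsk1: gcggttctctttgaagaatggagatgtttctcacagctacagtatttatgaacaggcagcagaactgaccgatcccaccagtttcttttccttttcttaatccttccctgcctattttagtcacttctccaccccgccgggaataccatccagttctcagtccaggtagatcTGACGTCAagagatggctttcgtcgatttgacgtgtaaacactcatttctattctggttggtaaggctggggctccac
Scg2: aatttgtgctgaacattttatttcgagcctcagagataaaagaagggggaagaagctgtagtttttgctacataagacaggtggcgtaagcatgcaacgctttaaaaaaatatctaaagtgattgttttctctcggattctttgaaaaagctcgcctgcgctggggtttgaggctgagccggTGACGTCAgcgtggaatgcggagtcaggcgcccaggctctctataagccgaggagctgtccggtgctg
Chgb: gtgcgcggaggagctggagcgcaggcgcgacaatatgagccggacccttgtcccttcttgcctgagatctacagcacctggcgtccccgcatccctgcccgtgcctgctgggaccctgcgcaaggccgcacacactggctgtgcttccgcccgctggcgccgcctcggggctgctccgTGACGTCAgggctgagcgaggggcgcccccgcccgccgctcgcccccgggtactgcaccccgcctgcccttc
A match is a description of these letters, not a bound site. A T-box element, AGGTGTGA, stood before 8 of 1304 higher genes (0.61%) and 71 of all 11190 (0.63%), and the SF-1 element AAGGTCA before 38 (2.91%) and 308 (2.75%).

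Agrp and Npy, of neighbouring arcuate neurons, were higher as well. Agrp, the melanocortin antagonist of hunger neurons (chr8:105566698-105637393, minus strand), was at 18.8, 17.77, 21.94 and 25.57 units, a mean of 21.0 ± 3.51 (SD, n = 4). Below 500 it ran from 4.11 to 8.31, a mean of 6.09 ± 1.53 (SD, n = 6), and the difference was 1.65 (SE 0.23, adjusted p = 0.000308). Npy was at 89.6, 111.16, 136.33 and 178.7 units against 62.93 to 83.69 (0.79, SE 0.17, adjusted p = 0.00395). Neither gene overlapped between the groups, but with chow libraries alone Npy did not pass (0.55, adjusted p = 0.089). Of 5 genes of AgRP/NPY neurons, these 2 were higher and none was lower, with a median of 0.77. The differences of 3 were above 0 and those of 2 below, down to -0.36. Bsx, a transcription factor of these neurons, was at 2.72 to 4.18 units above 500 and 0.84 to 2.73 below (0.77, adjusted p = 0.0528). Agrp shares 11.3% of its exonic bases with an overlapping same-strand gene model, so its reads are uncertain to that extent.

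Pdyn, the dynorphin precursor of kisspeptin and other neurons, was at 19.42, 32.39, 44.88 and 53.28 units against 5.27 to 10.74 (2.14, SE 0.27, adjusted p = 0.000165). It was the only one of 6 kisspeptin and tachykinin neuron genes that passed, with a list median of 0.46. Kiss1, whose exons all lie within a second gene model, was at 1.61 to 2.64 units above 500 and 0.16 to 1.16 below (0.74, adjusted p = 0.0638). Tac2, a tachykinin of the same neurons, had a difference of 0.18 (adjusted p = 0.765). Of 18 genes of other hypothalamic neurons, 1 was higher and 2 were lower, with a median of -0.29. The higher one was Nr5a1, the SF-1 factor of the ventromedial nucleus, at 15.03, 38.05, 52.77 and 61.32 units against 8.63 to 16.54 (1.59, SE 0.32, adjusted p = 0.00278). Chow library 3 lay within the range below 500, and with chow libraries alone the gene did not pass (adjusted p = 0.099). The lower ones were Avp, the vasopressin gene (-0.70, adjusted p = 0.0188), and Sim1, a paraventricular factor (-0.80, adjusted p = 0.0481), whose calls held in 8 and 3 of 10 fits without 1 library. Summed, these 19 markers were at 431 to 624 units above 500 and 497 to 672 below.

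The 12 largest rises among named genes that did not overlap included Tbx3, Pdyn and Pcsk1. Stxbp3a, a syntaxin-binding protein of vesicle fusion, led them at 200.88, 103.35, 109.95 and 213.84 units against 12.12 to 18.05 (median 12.84), a difference of 3.34 (SE 0.22, adjusted p = 5.58e-07). Dgkb, a diacylglycerol kinase, was at 278.32, 88.88, 101.78 and 123.0 units against 10.17 to 24.63 (2.89, SE 0.31, adjusted p = 3.63e-05). Gpr101, an orphan G-protein-coupled receptor of the hypothalamus, was at 21.29, 21.04, 15.37 and 23.41 units against 0.25 to 4.76 (2.75, SE 0.36, adjusted p = 0.000177). These 3 were higher again at day 21, where the lowest values were 391.61, 330.04 and 60.94 units.

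The remaining 6 were Etl4 (2.82), Unc13b (2.56), the cyclin gene Ccnf (2.41), the G-protein regulator gene Rgs14 (2.32), Esyt3 (2.20), an extended synaptotagmin of membrane contact sites, and Baiap3 (2.10), a relative of the Munc13 proteins. Unc13b, a Munc13 vesicle-priming protein, was at 3056.5, 1694.8, 1711.3 and 2764.5 units against 181.79 to 1084.5 (median 332), and its difference was 1.43 with chow libraries alone. At day 21 it was at 270.32 to 604.81 units, under all 4 libraries. Ccnf, at 49.45 to 111.55 units above 500 and 11.5 to 15.98 below, was at 5.2 to 16.16 units at day 21. The day 21 median lay over the highest value of the 6 libraries below 500 for 10 of the 12 genes. All 12 were called with chow libraries alone and without any single library, against 653 and 916 of all 1692 higher genes. They were picked for size and lack of overlap in these same libraries, so such calls are no separate check.

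Transmitter and synapse genes moved in both directions. Of 19 presynaptic genes 7 were higher and 3 lower, with a median of 0.24. Syp, the vesicle protein synaptophysin, was at 827.13, 961.88, 1082.3 and 1274.8 units against 491.58 to 599.61 (0.88, SE 0.12, adjusted p = 0.000279). Syn1, synapsin, was at 296.58, 309.01, 382.49 and 431.64 units against 177.91 to 230.71 (0.87, SE 0.13, adjusted p = 0.000363). Snap25, of the release machinery, differed by 0.64. Unc13a went the other way from Unc13b, at 222.36, 127.45, 131.89 and 235.03 units against 265.95 to 1284.8 (-1.63, SE 0.34, adjusted p = 0.00399). The other 2 lower genes were Pclo (-0.81), a very large active-zone scaffold, and Cplx2 (-0.84), a complexin. Syp shares 16.8% of its exonic bases with a gene on the opposite strand.

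Among 7 genes that define GABA or glutamate neurons, 3 were higher and none lower, with a median of -0.04. The differences of the other 4 were below 0, down to -0.45, and did not pass. The higher genes included Slc17a6, the glutamate transporter VGLUT2 of hypothalamic neurons (0.44), and Gad1, which makes GABA (0.43), with adjusted p of 0.0232 and 0.038. None of the 3 was called with chow libraries alone. The calls of Slc17a6 and Gad1 held in 9 and 4 of 10 fits without 1 library. Immediate early genes, which follow neuronal activity and handling, gave 1 lower gene of 14, Nr4a2 (-0.82, adjusted p = 0.0161), and a median of -0.12. The difference of Fos was 0.45 (adjusted p = 0.344).

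**Figure D3:**
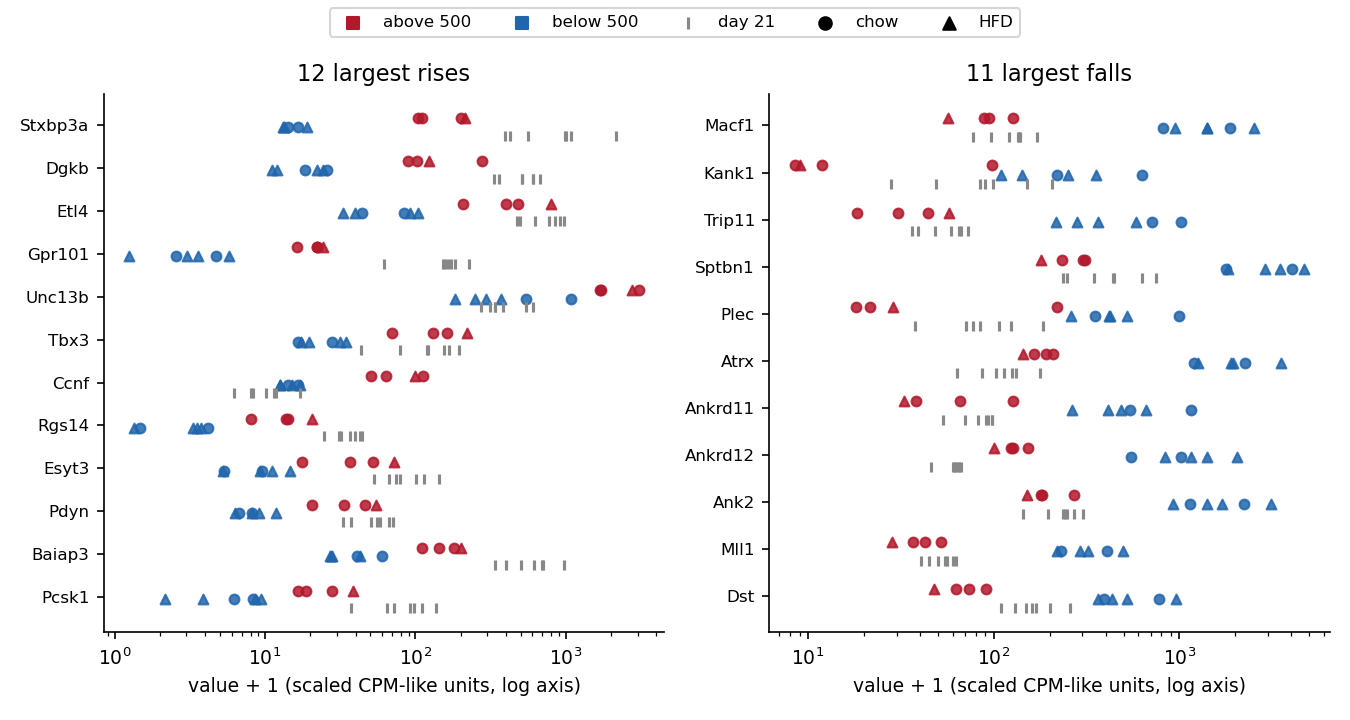
Value + 1 in each library (scaled units, log axis) for the 12 largest rises (left) and the 11 largest falls (right). Red marks are day 0 libraries above 500, blue marks those below, circles chow, triangles HFD and grey ticks day 21. Only genes whose red and blue marks do not overlap were eligible for either panel.

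Several chaperones and enzymes that fold secreted proteins in the endoplasmic reticulum were higher. Of 23 unfolded protein response genes, 10 were higher and none was lower (background 11.8% higher), with a median of 0.29. Hspa5, the master chaperone BiP (chr2:34771970-34777547), was at 443.08, 423.07, 645.51 and 507.82 units against 152.04 to 220.71 (median 177), a difference of 1.43 (SE 0.14, adjusted p = 1.77e-05). Herpud1, of the degradation arm, was at 110.44, 99.64, 126.2 and 119.22 units against 51.77 to 68.64 (0.95, SE 0.13, adjusted p = 0.000198). Hsp90b1, the chaperone GRP94, was at 348.8, 332.55, 412.2 and 457.15 units against 180.55 to 224.51 (0.86, SE 0.12, adjusted p = 0.000244). All 3 kept apart between the groups.

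The disulphide isomerase genes Pdia4 (1.16), Pdia6 (0.92) and Pdia3 (0.88) and the lectin chaperones Calr (0.83) and Canx (0.54) were also higher, with Dnajb11 (0.49) and Sel1l (0.48). The stress transducers and factors of the response did not pass. The differences of Ern1 (-0.02), Eif2ak3 (0.05), Atf6 (-0.25), Atf4 (-0.31), Ddit3 (-0.33) and Xbp1 (0.33) all missed the threshold. At day 21 Hspa5 was at 760.56 to 1505.4 units.

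The endoplasmic reticulum stress element, CCAAT and CCACG with 9 bases between them, read on both strands, stood in the 250 bases before the RefSeq start of 5 of these 10 higher genes (50.0%). It was before 7 of 20 genes of the whole list with an entry (35%), 6 of 1304 higher genes (0.46%), 1 of 957 lower genes (0.10%) and 15 of all 11190 (0.13%). The list is defined by a pathway known to use this element, so the share describes the list and not the split. Hspa5 at chr2:34771840-34772089 (plus) and Hsp90b1 at chr10:86705445-86705694 (minus), from RefSeq on GRCm38.p6, are shown as the 2 chaperone genes described above, with the fixed letters of each element in capitals. In Hsp90b1 the second copy is on the other strand.
Hspa5: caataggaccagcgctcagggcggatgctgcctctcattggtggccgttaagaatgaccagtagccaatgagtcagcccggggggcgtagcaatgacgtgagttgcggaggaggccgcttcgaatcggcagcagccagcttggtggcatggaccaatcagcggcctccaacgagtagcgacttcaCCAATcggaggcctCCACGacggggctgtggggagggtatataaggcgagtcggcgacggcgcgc
Hsp90b1: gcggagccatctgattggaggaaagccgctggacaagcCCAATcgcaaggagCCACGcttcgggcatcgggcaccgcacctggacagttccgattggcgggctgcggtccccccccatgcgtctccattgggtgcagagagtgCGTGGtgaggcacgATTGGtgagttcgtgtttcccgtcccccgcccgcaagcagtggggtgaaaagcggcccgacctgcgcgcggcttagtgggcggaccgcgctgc

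Of 77 nuclear genes of oxidative phosphorylation, 13 were higher (16.9%) and 9 lower (11.7%), not far from the 11.8% and 8.68% over all genes, and the median was -0.17. Sdha, the flavoprotein of complex II, was at 334.83, 320.96, 408.04 and 430.55 units against 158.87 to 206.6 (1.00, SE 0.12, adjusted p = 8.47e-05). Ndufs1, of complex I, was at 123.02, 113.39, 151.11 and 186.78 units against 59.46 to 92.03 (0.90, SE 0.17, adjusted p = 0.00185). Uqcrc1, a core subunit of complex III, differed by 0.70 (adjusted p = 0.00097), and Atp5a1 and Atp5b, of the ATP synthase head, by 0.58 each. The lower calls included Cox7c (-0.71, adjusted p = 0.00341) and Cox8a (-0.68), small subunits of cytochrome c oxidase, Atp5g2 (-0.61), of the ATP synthase ring, and Uqcr10 (-0.61), a small subunit of complex III. These 4 passed whichever library was left out. Summed, the list was at 19604 to 23155 units above 500 and 18445 to 23431 below.

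**Figure D4:**
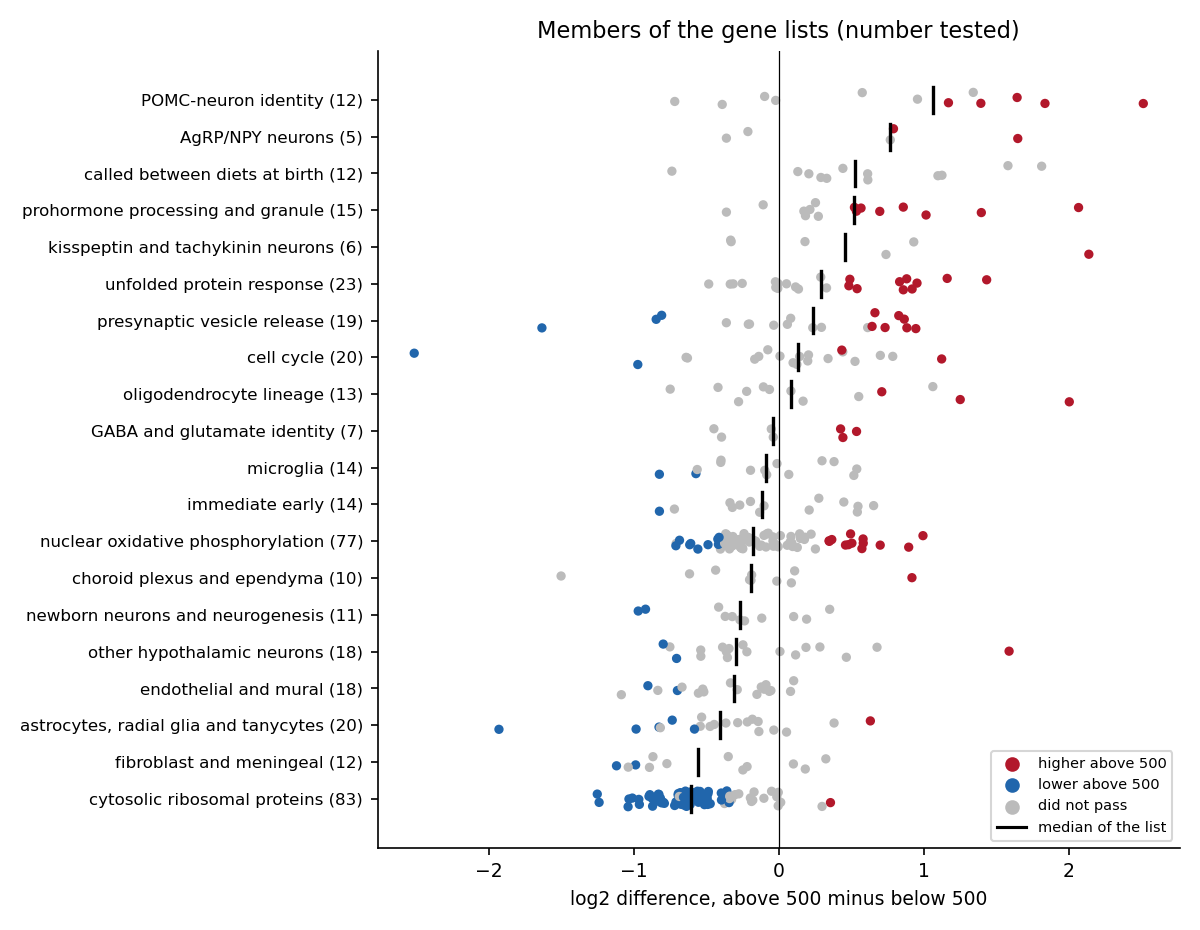
Log2 differences of the tested members of each gene list, with the median as a black bar and members in random vertical position. POMC-neuron identity has the highest median (1.06) and cytosolic ribosomal proteins the lowest (-0.61), and red and blue points passed the test.

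The 11 largest falls among named genes that did not overlap ran from -3.98 to -3.01. Macf1, a giant linker of microtubules and actin (chr4:123349633-123684360), was at 126.44, 87.85, 93.81 and 55.47 units. Below 500 it ran from 812.14 to 2533.3 (median 1404), a difference of -3.98 (SE 0.27, adjusted p = 5.58e-07). Sptbn1, a spectrin of the membrane skeleton, was at 300.93, 232.91, 308.82 and 178.79 units against 1781.9 to 4698.5 (-3.54, SE 0.25, adjusted p = 7.33e-07). Atrx, a chromatin remodeller, was at 163.85, 206.81, 189.58 and 143.01 units against 1190.7 to 3515.2 (-3.42, SE 0.23, adjusted p = 5.58e-07).

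The other large falls were Kank1 (-3.79), an adaptor at the cell cortex, Trip11 (-3.74), a Golgi tether, Plec (-3.51), the cytolinker plectin, Ankrd11 (-3.22) and Ankrd12 (-3.11), Ank2 (-3.07), the membrane adaptor ankyrin-B, Mll1 (-3.01), a histone methyltransferase, and Dst (-3.01), the cytolinker dystonin. Kank1 was at 96.73 units in chow library 3 and 7.49 to 10.96 in the other libraries above 500, against 108.13 to 624.24 below. Plec was also highest in chow library 3, at 219.36 units against 17.06 to 27.77 in the other 3 above 500. All 11 were called with chow libraries alone and without any single library, against 443 and 622 of all 1246 lower genes. As with the rises, these genes were picked in these same libraries, so such calls are no separate check. At day 21, every library lay under the lowest value of the 6 day 0 libraries below 500 for 10 of these 11 genes (for Kank1 the ranges overlapped), and Macf1 was at 76.08 to 169.69 units.

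These genes share a long coding sequence. All 11 exceeded 4000 coding bases, from 4080 to 23151, against 2 of the 11 largest rises that were matched to the annotation. Among all genes called lower, 293 of 1125 with a coding sequence (26.0%) were over 4000 bases, against 33 of 1676 called higher (1.97%) and 1021 of 13768 tested (7.42%). Over 6000 bases, 47.3% of 376 genes were lower and 1.33% higher. From 1001 to 2000 bases, 4.45% of 5327 were lower and 16.1% higher. The shortest class, up to 500 bases, also leaned to lower genes, with 17.5% of 1077 lower and 1.76% higher. The median difference in the longest class was -0.62, and -0.65 with chow libraries alone.

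**Figure D5:**
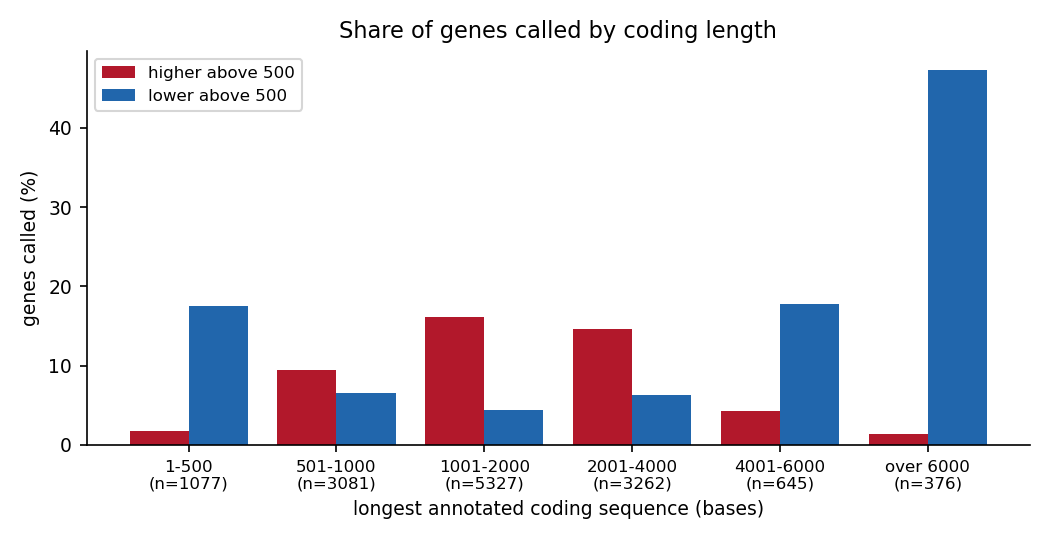
Percentage of genes called higher (red) or lower (blue) above 500, by the length of the longest annotated coding sequence, with the number of genes in each class. Lower calls are most frequent at both ends, 17.5% up to 500 bases and 47.3% over 6000, and higher calls in the middle.

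The share of A in the coding sequence was high in many of the largest falls, but hardly differed between all lower and all higher genes. The 50 largest falls had a median of 29.6% A and 7229 coding bases, the 50 largest rises 23.5% A and 1626 bases, and all genes 25.3% and 1422. Over all calls the medians were 25.8% A for lower and 25.5% for higher genes. Among the 11 largest falls the share ran from 22.5% (Plec) to 36.6% (Ankrd12), and among the 11 largest rises with a coding sequence from 20.8% (Baiap3) to 30.8% (Unc13b), so the ranges overlapped. The stretch of 60 coding bases with the most A, within 1 coding exon, is shown for these 4 genes at the ends of both ranges, as the strand of the mRNA from GRCm38, with A in capitals. They lie at chr17:65986979-65987038 (Ankrd12), chr15:76188214-76188273 (Plec), chr4:43170033-43170092 (Unc13b) and chr17:25243660-25243719 (Baiap3).
Ankrd12: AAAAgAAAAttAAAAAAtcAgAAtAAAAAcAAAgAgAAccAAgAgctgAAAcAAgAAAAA
Plec: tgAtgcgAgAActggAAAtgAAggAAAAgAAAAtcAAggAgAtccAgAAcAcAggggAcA
Unc13b: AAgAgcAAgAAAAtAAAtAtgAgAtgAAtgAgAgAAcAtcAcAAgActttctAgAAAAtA
Baiap3: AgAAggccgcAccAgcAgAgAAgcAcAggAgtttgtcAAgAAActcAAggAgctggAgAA
The windows hold 41 and 28 A in the falls Ankrd12 and Plec, and 32 and 23 in the rises Unc13b and Baiap3. A longer coding sequence offers more windows, so the counts are not matched for length, and the part of length or composition in the falls was not tested.

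Most ribosomal protein genes were lower. Of 83 tested, 64 were lower and 1 higher, against 8.68% lower over all genes, and the median was -0.61. Rps2, of the small subunit, was at 380.54, 407.77, 318.59 and 280.26 units against 681.76 to 1083.5 (-1.24, SE 0.14, adjusted p = 8.39e-05). Rplp0, of the ribosomal stalk, was at 428.56, 513.43, 435.42 and 355.51 units against 690.54 to 980.22 (-0.87, SE 0.12, adjusted p = 0.000327). The single higher one was Rpl7l1, an Rpl7-like gene (0.36, adjusted p = 0.0383), whose call held in 2 of 10 fits without 1 library. With edgeR on recovered reads none of the 83 was higher. Summed, the 83 were at 14297 to 20661 units above 500 and 21267 to 31880 below, and at day 21 Rps2 was at 165.77 to 289.78. These genes have many near-identical processed pseudogenes, so how their reads were shared is uncertain.

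Ribosomal protein mRNAs begin with a C and a run of pyrimidines through which their translation is controlled, and the start is shown because these genes moved together. A C followed by at least 5 more C or T, beginning within 5 bases of the RefSeq start, was found in 26 of 61 ribosomal protein genes with an entry (42.6%). It was in 18 of the 45 called lower, 106 of 912 other lower genes (11.6%), 129 of 1304 higher genes (9.9%) and 1188 of all 11190 (10.6%). Within the 61 ribosomal protein genes, the run was thus not more frequent in those called lower. Only starts that hold the run are shown, so they do not stand for the 61 genes or for the lower ones. The 25 bases around the start, from RefSeq on GRCm38.p6, with the run in capitals, are given for Rps2 at chr17:24720058-24720082 (plus), Rps18 at chr17:33955646-33955670 (minus), Rpl7a at chr2:26910802-26910826 (plus) and Rpl27a at chr7:109519190-109519214 (plus).
Rps2: gatctcgcgCTTCTTggagcactat
Rps18: ccgCTCTCTCTTCCacaggaggcct
Rpl7a: CTTTCTTTCTCCagcagccgagcaa
Rpl27a: gCTCCTCCCTTTTCCCTTTCTgcca

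Rn45s, the precursor of ribosomal RNA, was at 1821.7, 969.85, 405.11 and 989.9 units against 3387.5 to 8621.4 (-2.50, SE 0.34, adjusted p = 0.000221). Lars2, a protein-coding gene for a mitochondrial tRNA synthetase and among the most abundant entries of the table, was at 4599.9, 3672.1, 4040.7 and 3422 units against 6959.2 to 20275 (-1.47, SE 0.24, adjusted p = 0.000714). Neither overlapped between the groups. At day 21 Rn45s ran from 1074.5 to 5156.8 units, reaching into the range of the day 0 libraries below 500. Whether the carry-over of ribosomal RNA has a part in the other differences was not tested.

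Genes of dividing cells did not move as 1 group. Of 20 cell-cycle genes 2 were higher and 2 lower, with a median of 0.14. Mki67, a protein of mitotic chromosomes and itself very long (9531 coding bases), was at 6.13, 8.61, 2.12 and 4.21 units against 20.22 to 52.92 (-2.51, SE 0.33, adjusted p = 0.0002). The kinesin gene Cenpe also fell (-0.97, adjusted p = 0.039), while the differences of Top2a (0.13) and Cdk1 (0.15) missed the threshold. Mcm6, a subunit of the replicative helicase, was at 28.93, 51.67, 37.72 and 49.12 units against 12.25 to 25.14 (1.12, SE 0.22, adjusted p = 0.00276), and Pcna, the replication clamp, rose by 0.44 (adjusted p = 0.0204).

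Of 11 genes of newborn neurons, 2 were lower and none higher, with a median of -0.27, which was 0.087 without HFD library 5. Sox11, a factor of immature neurons, was at 198.85, 198.01, 281.11 and 108.28 units against 301.44 to 492.97 (-0.97, SE 0.21, adjusted p = 0.00472). Neurod1, a proneural factor, was at 4.2 to 10.68 units against 9.25 to 16.85 (-0.92, adjusted p = 0.0203). Dcx, doublecortin, had a difference of -0.23 (adjusted p = 0.143).

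Some markers of glia and progenitors were lower. Of 20 genes of astrocytes, radial glia and tanycytes, 5 were lower and 1 higher, with a median of -0.40, and their sum was 2167 to 3611 units above 500 and 2928 to 4284 below. Nes, the progenitor filament nestin (5592 coding bases), was at 17.06, 13.86, 14.97 and 10.24 units against 42.02 to 73.61 (-1.93, SE 0.19, adjusted p = 2.22e-05). Vim, the filament vimentin, was at 118.53, 84.5, 78.76 and 92.31 units against 123.25 to 163.45 (-0.58, SE 0.13, adjusted p = 0.00594). Lhx2, a tanycyte and progenitor factor, differed by -0.98, the glutamate transporter gene Slc1a2 by -0.82 and the Notch target Hes5 by -0.73, and the higher one was Crym (0.63). Gfap, the astrocyte filament, did not pass (-0.47, adjusted p = 0.328).

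Some myelin genes were higher. Of 13 genes of the oligodendrocyte lineage 3 were higher and none lower, with a median of 0.09. Mbp, myelin basic protein, was at 291.9, 104.94, 76.91 and 96.78 units against 42.2 to 62.53 (1.25, SE 0.27, adjusted p = 0.00442), and Cnp, a myelin enzyme, differed by 0.71. Chow library 3 was highest for Mbp and Cnp. Without it the difference of Mbp was 0.84 and still passed. The lineage factors Sox10 (-0.06) and Olig2 (-0.75) missed the threshold. The list summed to 458 to 1093 units above 500 and 367 to 542 below, and its part in the other differences was not tested.

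Summed RNA of marker genes for other cells of the dissected tissue was found in all 10 libraries. Microglial genes gave 2 lower of 14, C1qc (-0.57) and Tyrobp (-0.82), with a median of -0.09 and a sum of 182 to 269 units above 500 and 187 to 259 below. Endothelial and mural genes gave 2 lower of 18, Egfl7 (-0.70) and Flt1 (-0.90), with a median of -0.31 and a sum of 174 to 238 against 229 to 338. The call of Flt1 held in 1 of 10 fits without 1 library. Fibroblast and meningeal genes gave 2 lower of 12, Igf2 (-1.12), which shares 62.8% of its exonic bases with a gene model, and Col4a1 (-0.99), with a median of -0.56 and a sum of 209 to 730 against 318 to 976. Choroid plexus and ependymal genes gave 1 higher of 10, Kl (0.92, adjusted p = 0.0472), with a median of -0.19 and a sum of 47.8 to 610 against 56.9 to 1192. Ttr, the main choroid plexus product, was at 8.03 to 548.84 units above 500 and 19.66 to 1125.9 below (adjusted p = 0.346). Among erythroid genes only Alas2 was tested (-0.60, adjusted p = 0.237). The calls of Col4a1 and Kl held in 3 and 2 of 10 such fits. The part of these cells in the split was not tested.

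Diet and the split overlap in part, so both were put in 1 model of the 10 libraries. In it the split gave 3828 calls (26.7%), 2172 higher and 1656 lower (15.1% and 11.5%), of which 2670 were calls in the same direction without the diet term. With the split as a term, 445 of 14353 genes differed between diets (3.1%), 101 higher and 344 lower in HFD (0.704% and 2.4%), against 41 without it (0.286%). All 41 were among the 445. Without HFD library 5 the count was 119. The 5 with the smallest p were Dapk3, a death-associated kinase (-3.57, HFD minus chow, adjusted p = 2.45e-06), Ano8, an anoctamin (-3.59), Alyref, an mRNA export factor (-2.41), Ube2m, a NEDD8-conjugating enzyme (-2.28), and Coq10a (-1.97), a coenzyme Q binding protein.

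None of these 5 diet genes passed in the split without a diet term. With it, Ube2m (-0.997, adjusted p = 0.00438) and Coq10a (-0.86, adjusted p = 0.00587) were lower above 500, and the other 3 did not pass. Dapk3 was at 32.67, 52.07 and 77.12 units in the chow libraries above 500 and at 2.11 in HFD library 5, against 3.84 to 56.06 below (1.10, SE 0.87, adjusted p = 0.392). Of 12 genes called between the diets in an earlier reading of these libraries, none passed in the split, with a median of 0.53. In a model with a split by diet interaction 123 genes passed (0.857%), 2 with a higher and 121 with a lower difference in HFD (0.0139% and 0.843%). That term rests on 1 HFD library above 500.

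The 7 day 21 libraries, which took no part in the split, offered a slope on log2 Pomc with diet as a covariate. None of 14069 genes passed (limma, with 777 at an unadjusted p under 0.05; edgeR on recovered reads also gave 0, with 691). Of 1688 genes higher above 500 at day 0, 640 (37.9%) had a positive slope at day 21, against 57.1% of the lower genes and 49.6% of all. Without chow library 3 of day 21, which had the highest Pomc, the shares were 52.4%, 41.9% and 48.1%. Without the diet term they were 62.0%, 38.9% and 47.6%, so the direction turned with either choice. In chow library 3 of day 21 Agrp was at 13.97 units, against 120.86 to 264.56 in the other 6. Its slope was -2.14 per log2 unit of Pomc (limma adjusted p = 0.11). Npy was at 51.93 units in the same library and at 396.47 to 740.28 in the other 6, with a slope of -1.99 (limma adjusted p = 0.063). That library also had the highest Pitx1 of day 21, at 9.51 units against 0.14 to 2.54 in the other 6. Its Cga, at 24.26 units, lay within the 8.4 to 44.31 of the other 6. The part of pituitary RNA in its Pomc value was not tested.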

How the data were processed

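Ribosome-associated RNA pulled down from 17 samples was made into Nextera XT libraries and read for 50 bases from 1 end on a HiSeq, per the labels' protocols. The submitters' processing notes name FastQC, TopHat2 2.0.13, Picard 1.80, HTSeq 0.6.1, edgeR and genome build mm10. How reads were aligned, counted by strand and filtered is not given in the sources used here. This deposited table of 15355 genes holds normalized signal and not raw counts, in scaled units with 2 decimals and column sums of 0.908 to 1.10 M. Since the values are not counts, the edgeR test planned for counts was not used as the main one.

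Day 0 libraries were grouped by the Pomc value alone. Each gene was fitted with limma 3.58.1 (R 4.3.3) on log2(value + 1), letting the prior variance follow intensity, two-sided, with Benjamini-Hochberg adjustment at 0.05 over all genes above 1 unit in at least 4 libraries (3 for the day 21 slope). Pomc was left out. Whole reads were recovered from the steps of the table, with at least 99.97% of non-zero values whole within its rounding against 22.2% to 37.0% by chance. They gave the depths and served edgeR 4.0.16 and DESeq2 1.42.0 as alternatives. In 5 of the 10 day 0 libraries the steps are sharp, and edgeR was also run on these. That run, and edgeR for diet and for day 21, were added after seeing the data.

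The members, the 22 gene lists and the tests were chosen with earlier results of these data known. Lists are described by counts and medians, with no test. Named genes were 8 fixed ones (Cartpt, Agrp, Npy, Lepr, Pcsk1, Tbx19, Pitx1, Cga), the 12 largest rises and 12 largest falls among calls without overlap (unnamed gene models counted, 40 of the higher and 131 of the lower calls), 3 per list by smallest p, and 5 for diet, and 7 of these genes are not reported here singly. Other named genes, among them Rn45s and Lars2, were chosen after their values were seen. Coding sequences and coordinates come from GENCODE M21 (99.3% of symbols matched, 95.9% with a coding sequence), promoters and starts from RefSeq. Of 84 named genes with coordinates, 30 share exonic bases with another gene and 7 over 10%, among them Alas2 (12.9%), Hsp90b1 (10.3%) and Nptxr (17.2%). Stxbp3a had no matched annotation. The fitting code was tested on simulated data.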

Additional observations from a re-analysis of the deposited data

Results flagged for a closer look

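Among 83 named genes, 10 of 166 groups of 4 or 6 libraries held a library far from the others by Dixon's test, where chance flags about 1 in 20 groups. Above 500, chow library 3 stood high for Cartpt (105.57 units) and Kank1 (96.73), and HFD library 5 stood low for Lhx2 (11.41) and Alyref (9.1). Alyref was lower in HFD in the diet model, and the other libraries above 500 are chow, so its flag cannot be told apart from diet.

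Below 500, chow library 2 stood low for Kiss1 (0.16 units) and Neurod1 (9.25) and high for Syn1 (230.71) and Ccdc153 (7.33). HFD library 2 stood high for Junb (5.21). HFD library 3 stood low for Flt1 (5.97).

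For Alyref the split differed between the diets, with an interaction of -1.54 on the log2 scale (HFD minus chow, limma adjusted p = 0.0382). Over all genes 123 interactions passed, and each rests on HFD library 5 as the only HFD library above 500.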

How the results depend on the processing

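The 2938 calls of the split (1692 higher, 1246 lower) fell to 1335 (776 and 559) with chow libraries alone and to 1111 (551 and 560) with edgeR on the 5 libraries with sharp steps, both of which use 5 libraries. They were 3828 with diet as a covariate and 3294 with DESeq2. Leaving out 1 library gave 1891 to 3129 calls, 1085 to 1829 higher and 804 to 1300 lower, with the lowest counts without chow library 5 or HFD library 5. A slope on log2 Pomc gave 803 lower calls. Of the calls, 57.6% were higher, against 52.7% with median-ratio rescaling, 51.0% with edgeR and 50.4% with DESeq2 on all recovered reads. Of 63 named genes past the test in the split, 51 passed whichever library was left out, 45 with chow libraries alone and 61 with edgeR. Most named genes were picked by small p or large difference in this same split, so they do not stand for all calls. Of all 2938 calls, 1538 (52.3%) passed whichever library was left out, 1096 (37.3%) with chow libraries alone and 2528 (86.0%) with edgeR.

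With the replicate block the split gave 14 calls, 7 higher and 7 lower. The labels give both diets the numbers 1 to 5 and no litter or batch, so the numbers were not taken to pair the libraries. Deviations of same-numbered libraries correlated at 0.18, 0.28, -0.04, -0.18 and 0.50 for numbers 1 to 5. They are negative only where the 2 libraries lie on different sides of 500, so they cannot decide whether the numbers pair libraries. Same-numbered libraries lie on different sides of 500 only at numbers 3 and 4, with chow above and HFD below, so split and diet cannot be told apart there. Not every library correlated best with its own number.

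The diet count of 445 was 41 without the Pomc term, 276 with edgeR and 119 to 464 with 1 library left out. The day 21 slope gave 3 calls with a pseudocount of 5, 1 without a filter on low values and 0 to 2 with 1 library left out.

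List medians moved as follows. POMC-neuron identity was 1.32 with a pseudocount of 0.5, 0.62 with 5, and 0.76 to 1.21 without 1 library. AgRP/NPY neurons were 0.36 and the unfolded protein response 0.20 with a pseudocount of 5, the latter 0.18 to 0.42 without 1 library. With chow libraries alone, the medians were 0.31 for granule genes, 0.0070 for kisspeptin neurons, 0.15 for GABA and glutamate genes, -0.63 for choroid plexus and 0.12 for immediate early genes. Without 1 library, they ran from -0.40 to -0.034 for other hypothalamic neurons, -0.14 to 0.10 for GABA and glutamate genes, -0.44 to 0.087 for newborn neurons and -0.16 to 0.10 for immediate early genes.

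Some differences changed sign, none of them past the threshold in the split. Cartpt was 0.082 with a pseudocount of 5, 0.80 with the replicate block, 0.059 with chow libraries alone, 0.98 with edgeR and 0.98 with DESeq2, and -0.91 to 0.32 without 1 library. Ube2m was 1.07 with the block, 0.059 as a slope, 0.045 with edgeR, 0.62 on the 5 libraries, 0.059 with DESeq2 and -0.48 to 0.69 without 1 library. Coq10a was 1.10 with the block, 0.021 as a slope, 0.53 on the 5 libraries and -0.31 to 0.57 without 1 library. With the block Tmem212 was 0.13 and Ccdc153 0.11. Dapk3 was -0.39 and Alyref -0.56 with diet as a covariate, Dapk3 -0.080 with chow libraries alone, and Esr1 -0.25 on the 5 libraries. The cause of these changes was not tested. The limits are the 4 libraries above 500, a single HFD library among them, and genes near the floor of 3 reads.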
